A study of Mus musculus with 12 samples.

Results

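The genes examined here were 10 ligands through which cells restrain or costimulate immune cells, *Cd274*, *Pdcd1lg2*, *Icosl*, *Cd80*, *Cd86*, *Cd276*, *Cd47*, *Lgals9*, *Pvr* and *Cd200*. They were taken by symbol, and all 10 were present among the 45563 gene symbols used from the naïve and the stimulated table. Values were given as FPKM, fragments scaled to the library total and to a number of bases per gene. Of the 10, 9 averaged 0.1 FPKM or more over the 12 libraries and were tested, and *Cd86* was not.

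RNA was sequenced from primary oligodendrocyte precursor cells (OPCs), the dividing cells that give rise to myelinating oligodendrocytes. They came from cortices of pups that the labels give as C57BL/6 and aged 2 to 5 days (the methods give the WT mice as C57BL/6J), either wild type (WT) or TNFR2-/-, and were kept for 3 days in vitro. Cells were then left naïve (NS, vehicle) or stimulated (St) for 3 h with TNF, IFNγ and IL1β at 25 ng/mL each, which gave WT NS, WT St, TNFR2-/- NS and TNFR2-/- St groups of 3 libraries. All 4 groups share the strain and the selection with anti-PDGFRα beads. Per the methods TNFR2-/- is a germline knockout, carried by every cell of the pup before isolation, and as the 3 cytokines were given together their effects cannot be told apart.

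Cells that meet T cells, natural killer cells or phagocytes carry ligands that set how strongly those cells respond. CD80, CD86 and ICOS ligand give a second, costimulatory signal beside the antigen receptor, while PD-L1 (*Cd274*) and PD-L2 (*Pdcd1lg2*) engage PD-1 and restrain T cells. CD47 engages SIRPα and holds back phagocytosis, CD200 quiets myeloid cells through its receptor, galectin-9 (*Lgals9*) is a ligand of TIM-3, and the poliovirus receptor CD155 (*Pvr*) is bound by DNAM-1, TIGIT and CD96. Interferon γ induces PD-L1 in many cell types through the kinases JAK1 and JAK2 and the factor IRF1.

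Promoters are printed for the PD-1 ligand genes, neighbors on chromosome 19 whose values are set side by side below, and for *Lgals9*, the called member whose promoter held a response element core. The 250 bases before each gene's start in RefSeq were taken on GRCm38.p6, for 8 of the 10 members, without *Pvr* and *Cd86*. RefSeq starts are not those of the GENCODE gene coordinates given below for every member, and for *Cd47*, *Cd80*, *Cd276*, *Icosl* and *Lgals9* they lie inside the GENCODE gene, furthest for *Cd47* and *Cd80*. They were searched on both strands for an interferon-stimulated response element core (GAAANNGAAA), an interferon regulatory factor core (AANNGAAA), a gamma-activated site (TTCNNNGAA) and the NF-kappaB consensus. The second of these can lie within the first, and capitals mark the matches.

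Cd274, chr19:29367188-29367437, plus strand: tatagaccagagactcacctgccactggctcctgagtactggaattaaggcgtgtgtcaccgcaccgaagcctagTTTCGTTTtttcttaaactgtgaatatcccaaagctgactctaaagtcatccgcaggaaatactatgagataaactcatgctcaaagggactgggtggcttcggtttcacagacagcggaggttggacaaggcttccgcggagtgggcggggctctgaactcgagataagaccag
Pdcd1lg2, chr19:29410669-29410918, plus strand: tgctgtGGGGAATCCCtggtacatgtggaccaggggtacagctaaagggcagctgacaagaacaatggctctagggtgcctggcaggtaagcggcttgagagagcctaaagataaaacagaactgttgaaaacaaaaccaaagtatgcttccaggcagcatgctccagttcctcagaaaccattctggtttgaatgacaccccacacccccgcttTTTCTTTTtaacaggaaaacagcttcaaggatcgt
Lgals9, chr11:78984925-78985174, minus strand: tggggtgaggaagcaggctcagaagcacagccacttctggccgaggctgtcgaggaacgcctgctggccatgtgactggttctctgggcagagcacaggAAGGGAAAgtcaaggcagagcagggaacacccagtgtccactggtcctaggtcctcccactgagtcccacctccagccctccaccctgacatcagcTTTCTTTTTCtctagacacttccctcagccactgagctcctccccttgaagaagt

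In *Cd274* the match was an interferon regulatory factor core on the other strand, 175 to 168 bases before the start. *Pdcd1lg2* held a match to the NF-kappaB consensus at 244 to 235 bases and an interferon regulatory factor core at 35 to 28 bases. *Lgals9* held a core of the response element at 55 to 46 bases on the other strand, which overlaps a regulatory factor core, and a further regulatory factor core at 151 to 144 bases. *Cd200* held 1 regulatory factor core, at 104 to 97 bases, and *Icosl*, *Cd80*, *Cd276* and *Cd47* held none of the 4 motifs. Among 32851 promoters of the same length, 2.98% held the response element core, 21.3% the regulatory factor core, 7.02% the gamma-activated site and 3.9% the NF-kappaB consensus, so these matches are descriptions of letters and not of bound sites.

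Whole reads could be recovered from the FPKM, and library totals ranged from 26886878 to 30335265 reads. *Tnfrsf1b*, the gene of TNFR2, had 12 to 24 reads in naïve and 61 to 145 in stimulated libraries labelled WT. In those labelled TNFR2-/- it had 213 to 346 reads when naïve and 282 to 356 when stimulated. The latter thus held more reads of the targeted gene than those labelled WT, and as values are per gene, reads from inside and outside the disrupted part could not be separated. Every direction between genotypes given here rests on the labels. All 8 OPC markers were read in every group, with a sum of 7110 to 9950 RPM (reads per 1000000 of the library total) in each library. The 15 microglial markers summed to 15.4 to 22.2 RPM. *Cd68* gave 126 to 347 reads a library, while *Cx3cr1*, *Aif1*, *Ptprc* and *Tyrobp* gave 0 to 2 reads in every library. Of 13 dendritic and lymphoid markers, *Cd3d*, *Ms4a1* and *Ncr1* were at 0 in all 12 libraries and *Zbtb46* held the most reads (299 to 503). Markers of astrocytes summed to 1880 to 2240 RPM in WT and to 2800 to 4530 in TNFR2-/- libraries. Replicates are numbered in the labels, which do not say that they came from separate litters, so p-values measure the spread between these libraries.

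*Cd274* (ENSMUSG00000016496, chr19:29367455-29388095 on the plus strand of GRCm38, as GENCODE M21 gives it), which encodes PD-L1, was the member with the largest response to the cytokines. In WT NS OPCs it was read at 0.396, 0.362 and 0.469 FPKM in replicates 2, 3 and 4, from 11, 9 and 13 reads. After stimulation the same replicates gave 281, 324 and 274 FPKM, from 7809, 8975 and 7609 reads. Every stimulated library lay far above every naïve one, and the mean rose 715-fold, from 0.409 ± 0.0547 to 293 ± 26.9 FPKM (SD, n = 3). In TNFR2-/- NS it was read at 0.467, 1.0 and 0.928 FPKM in replicates 2, 4 and 5, and in TNFR2-/- St at 379, 384 and 557 FPKM. The mean rose 551-fold there, from 0.799 ± 0.289 to 440 ± 102 FPKM (SD, n = 3). On the log2(FPKM + 0.5) scale, which understates the change of a gene this low at the start, the rise was 8.33 ± 0.18 in WT and 8.41 ± 0.18 in TNFR2-/- OPCs (log2 fold change ± SE). Its limma adjusted p was 8.46e-10 and 1.08e-09, respectively. It passed the call used throughout, an adjusted p of at most 0.05, a change of at least 1.5-fold and a mean of at least 1 FPKM.

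**Figure D1:**
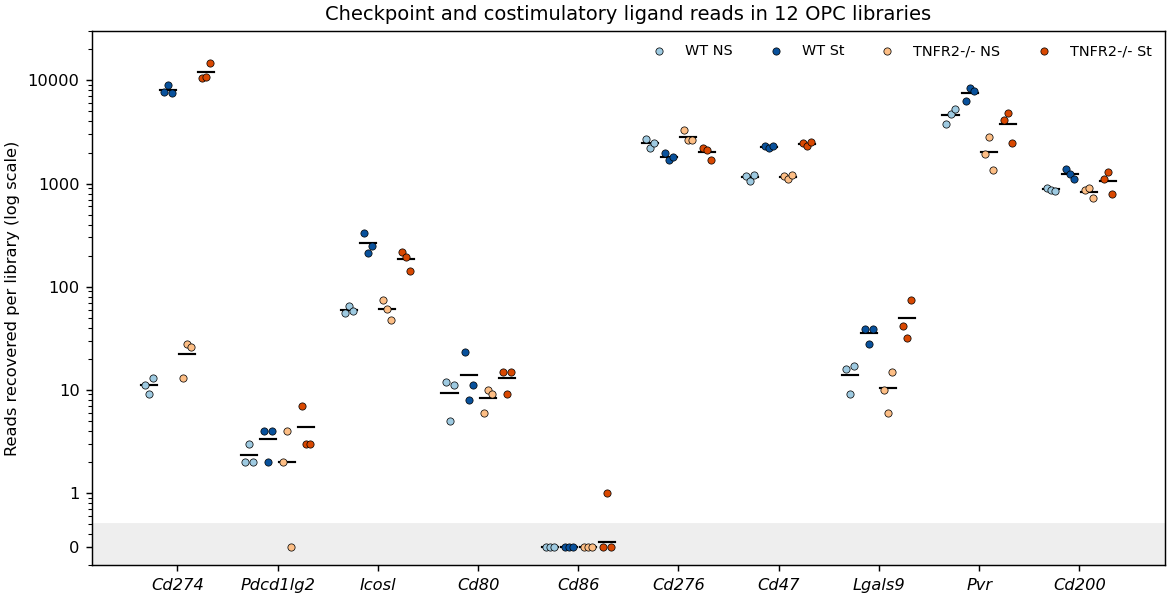
Reads recovered per library (log scale, with 0 drawn in the gray band) for the 10 ligand genes in WT NS, WT St, TNFR2-/- NS and TNFR2-/- St libraries. Points are libraries and bars are group means. *Cd274* moves from between 9 and 28 reads in naïve to between 7609 and 14778 reads in stimulated libraries. *Cd86* is above 0 in 1 library, drawn at 1 read, the least count that fits.

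*Pdcd1lg2* (ENSMUSG00000016498, chr19:29410919-29471161, plus strand), which encodes the other PD-1 ligand and starts 43.5 kb from *Cd274*, stayed near the limit of detection. It gave 2, 3 and 2 reads in WT NS and 4, 2 and 4 in WT St libraries, and 2, 4 and 0 in TNFR2-/- NS and 7, 3 and 3 in TNFR2-/- St libraries. Naïve and stimulated libraries overlapped in both genotypes. The log2 fold change was 0.07 (95% CI -0.19 to 0.33) in WT and 0.19 (95% CI -0.07 to 0.45) in TNFR2-/- OPCs, with adjusted p of 0.783 and 0.278 by limma. As *Pdcd1lg2* lay below the added 0.5 FPKM in every library, these values and intervals are compressed toward 0. With voom on the recovered reads, which adds 0.5 to each read count in place of FPKM, they were 0.42 (adjusted p = 0.789) and 1.5 (adjusted p = 0.165). At so few reads that addition weighs on these values too, as in the TNFR2-/- NS library with 0 reads. With 0 to 7 reads a library, smaller changes were not detectable at this depth.

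Genes around *Cd274* on chromosome 19 were read to see whether its response was shared along the chromosome. Of the 5 protein-coding genes on each side, *Jak2*, the kinase bound to the interferon γ receptor, rose by 1.38 ± 0.06 on the log2 scale in WT (adjusted p = 1.27e-07) and by 1.68 ± 0.06 in TNFR2-/- (adjusted p = 2.78e-08). *Plgrkt*, a plasminogen receptor, rose by 0.66 ± 0.09 in WT (adjusted p = 0.000484), and its value of 0.47 ± 0.09 in TNFR2-/- OPCs (adjusted p = 0.00328) was under the fold required. *Plgrkt* spans chr19:29348599-29367390, so its upper end lies inside the promoter bases printed for *Cd274*. *Mlana* had a log2 fold change of 1.49 in WT and 1.47 in TNFR2-/- OPCs from 0 to 25 reads a library, below the level required. None of *Rcl1*, *Insl6*, *Rln1*, *Pdcd1lg2*, *Ric1*, *Ermp1* or *9930021J03Rik* was called in either response. In TNFR2-/- OPCs 3 of them rose past the adjusted threshold but under the fold required. These were *Ric1* (0.50, adjusted p = 0.00104), *9930021J03Rik* (0.49, adjusted p = 0.00332) and *Ermp1* (0.33, adjusted p = 0.0143). *Ric1* did so in WT as well (0.305, adjusted p = 0.0243).

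**Figure D2:**
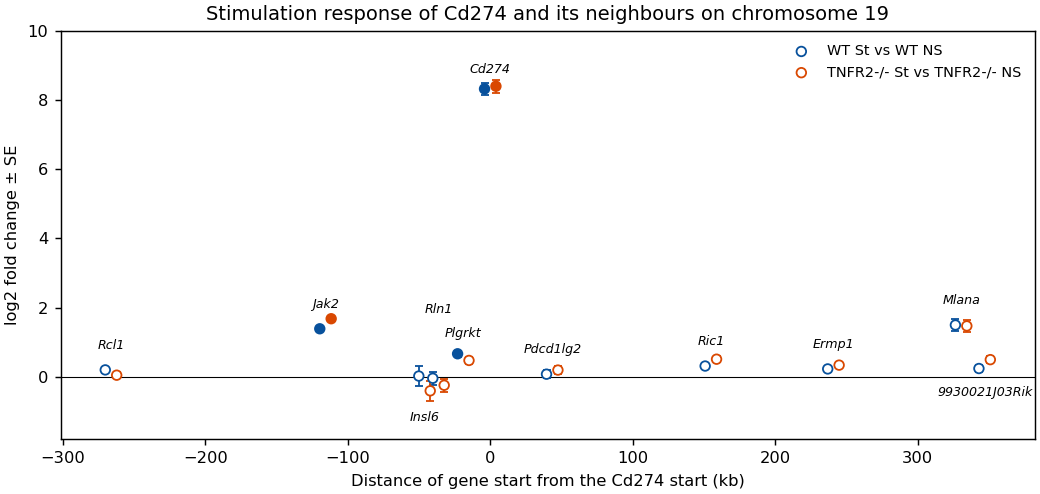
Stimulation response (log2 fold change ± SE) of *Cd274* and 5 protein-coding genes on each side by the distance of their start from the *Cd274* start in kb, in WT (blue) and TNFR2-/- (orange) OPCs. The start is the lower coordinate of each gene, whatever its strand. Filled points passed the call. *Cd274* lies at 8.33 and 8.41, and the highest called neighbor, *Jak2*, at 1.38 and 1.68.

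The naïve level of *Cd274* was 0.49 ± 0.18 higher on the log2 scale in the libraries labelled TNFR2-/- than in WT (adjusted p = 0.106), and the groups overlapped. That value is compressed by the added 0.5 FPKM, and the naïve means differed 1.95-fold. After stimulation the difference was 0.57 ± 0.18 (adjusted p = 0.0879). All TNFR2-/- St libraries lay above all WT St libraries, 1.5-fold in the mean, yet the difference missed the adjusted threshold. Without the cultures numbered 5 in TNFR2-/-, which held the highest stimulated value, it was 0.38 (adjusted p = 0.209). With voom on the recovered reads it was 0.58 (adjusted p = 0.0244), which passed the adjusted threshold and was just under the fold required. The response itself differed between genotypes by 0.08 (95% CI -0.50 to 0.65, adjusted p = 0.98 for the interaction), and the sign of that difference turned with the pseudocount.

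Of the costimulatory B7 ligands, *Icosl* alone was upregulated. *Icosl* (ENSMUSG00000000732, chr10:78069302-78083913, plus strand) encodes the ligand of ICOS. It was read at 5.14, 6.66 and 5.33 FPKM in WT NS and at 30.3, 19.3 and 22.8 FPKM in WT St replicates 2, 3 and 4. In TNFR2-/- replicates 2, 4 and 5 it was read at 6.77, 5.55 and 4.27 FPKM when naïve and at 19.7, 17.9 and 13.7 FPKM when stimulated. Naïve and stimulated libraries did not overlap in either genotype, and the means rose 4.23-fold in WT and 3.09-fold in TNFR2-/- OPCs. The log2 fold changes were 1.97 ± 0.20 (adjusted p = 7.35e-05) and 1.55 ± 0.20 (adjusted p = 0.000312). Stimulated TNFR2-/- libraries had a log2 difference of -0.48 ± 0.20 from WT (adjusted p = 0.17) and overlapped them, and the responses differed by -0.42 ± 0.29 (adjusted p = 0.77).

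*Cd80* (ENSMUSG00000075122, chr16:38455561-38496335, plus strand) and *Cd86* (ENSMUSG00000022901, chr16:36603869-36666081, minus strand) encode the ligands of CD28 and CTLA-4 that are typical of professional antigen-presenting cells. *Cd80* gave 5 to 12 reads in naïve WT, 8 to 23 in stimulated WT, 6 to 10 in naïve TNFR2-/- and 9 to 15 in stimulated TNFR2-/- libraries. These ranges overlapped, and its log2 fold change was 0.25 (95% CI -0.23 to 0.73) in WT and 0.32 (95% CI -0.16 to 0.80) in TNFR2-/- OPCs, with adjusted p of 0.539 and 0.324 by limma. As *Cd80* averaged 0.493 FPKM, near the added 0.5 FPKM, these values and intervals are compressed toward 0. Its mean FPKM rose 1.47-fold in WT and 1.6-fold in TNFR2-/- OPCs. *Cd86* was above 0 in TNFR2-/- St replicate 4 alone, at 0.0475 FPKM, and gave 0 reads in the other 11 libraries. From a value in 1 library, 1 read is the least count that fits and not a recovered number. With totals of 26886878 reads or more, 0 reads allow up to 3 reads a library, so that its expression was not detectable at this depth in either genotype or condition.

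*Cd276* (ENSMUSG00000035914, chr9:58524298-58555437, minus strand), the B7 family member B7-H3, was among the members with the most reads and had the same modest difference in both genotypes. Its FPKM were 359, 324 and 326 in WT NS and 260, 221 and 238 in WT St. TNFR2-/- libraries held 433, 347 and 344 FPKM when naïve and 294, 280 and 234 FPKM when stimulated. All stimulated libraries lay below all naïve ones of their genotype. The log2 fold change was -0.49 ± 0.11 in WT (adjusted p = 0.0118) and -0.47 ± 0.11 in TNFR2-/- OPCs (adjusted p = 0.00978), which passed the adjusted threshold but not the fold required, and it was therefore not called.

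*Cd47* (ENSMUSG00000055447, chr16:49800533-49915010, plus strand), which signals to phagocytes not to engulf the cell, rose in both genotypes with the smallest standard error of the 9 tested members. WT NS libraries gave 58.4, 58.4 and 59.9 FPKM and WT St libraries 113, 108 and 113 FPKM. TNFR2-/- NS libraries gave 58.2, 53.4 and 58.4 FPKM and TNFR2-/- St libraries 121, 112 and 129 FPKM. The groups were well apart, and the means rose 1.88-fold in WT and 2.13-fold in TNFR2-/- OPCs. On the log2 scale this was 0.91 ± 0.06 (adjusted p = 2.32e-06) and 1.08 ± 0.06 (adjusted p = 5.17e-07). The responses differed by 0.17 ± 0.09 (adjusted p = 0.654).

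*Lgals9* (ENSMUSG00000001123, chr11:78962974-78984946, minus strand), the gene of galectin-9, rose in every numbered culture but from few reads. In WT NS libraries it gave 16, 9 and 17 reads and in WT St libraries 39, 28 and 39 reads. Naïve TNFR2-/- libraries gave 10, 6 and 15 reads and stimulated ones 42, 32 and 74. In FPKM the means rose 2.46-fold in WT, from 5.43 ± 1.43 to 13.4 ± 2.39, and 4.91-fold in TNFR2-/- OPCs, from 3.88 ± 1.69 to 19.1 ± 9.07 (SD, n = 3), and the groups did not overlap. The log2 fold change was 1.24 ± 0.35 in WT (adjusted p = 0.0379) and 2.14 ± 0.35 in TNFR2-/- OPCs (adjusted p = 0.00145). FPKM are high for these reads because the deposited values divide *Lgals9* by 88 bases, against 2137 annotated exon bases. Under a threshold of 2 RPM in place of 1 FPKM it would not have been called in either genotype, and the WT call was lost without the filter on low values (adjusted p = 0.0749) and when any 1 of the 6 WT libraries, TNFR2-/- NS replicate 2 or TNFR2-/- St replicate 2 was left out (adjusted p of 0.0517 to 0.136). The response was 0.90 ± 0.50 larger in TNFR2-/- on the log2 scale (adjusted p = 0.711), and stimulated libraries of both genotypes overlapped.

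**Figure D3:**
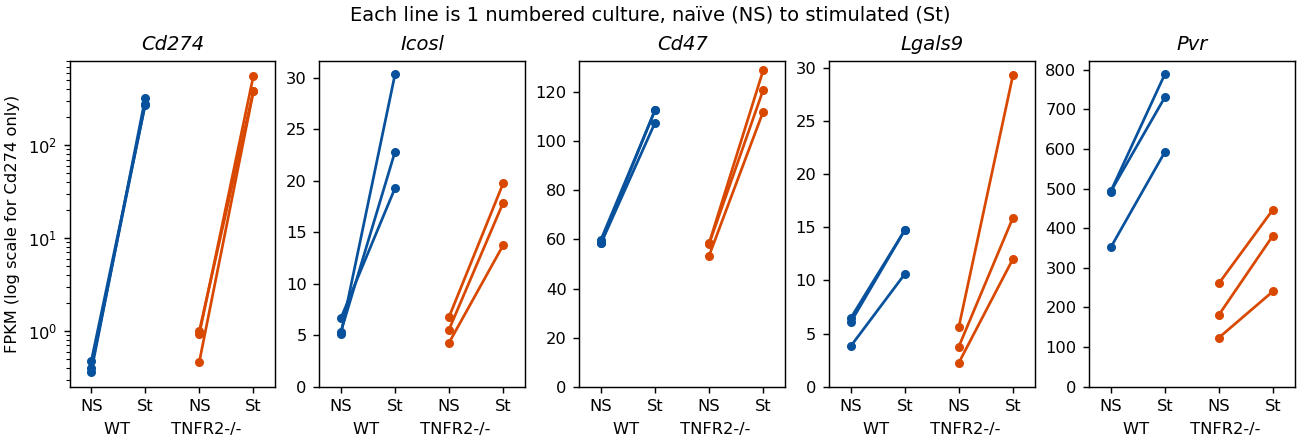
FPKM (log scale for *Cd274* only) of the 5 called members in each numbered culture, naïve (NS) to stimulated (St), WT in blue and TNFR2-/- in orange. Each line rises. For *Pvr* all 3 TNFR2-/- lines lie below the WT lines at the same condition.

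*Pvr* (ENSMUSG00000040511, chr7:19903578-19921160, minus strand), the gene of CD155, was the one member called between genotypes. WT NS replicates 2, 3 and 4 gave 351, 493 and 492 FPKM, and TNFR2-/- NS replicates 2, 4 and 5 gave 181, 261 and 124 FPKM. The genotypes did not overlap, and the mean was 2.36-fold lower in the libraries labelled TNFR2-/- (189 ± 68.9 against 446 ± 81.6 FPKM, SD, n = 3). The log2 fold change was -1.29 ± 0.29 (adjusted p = 0.0258). It was not called when WT replicate 3 or 4 or TNFR2-/- replicate 2 or 5 was left out of the naïve libraries (adjusted p of 0.0641 to 0.103), nor in a fit of the 6 naïve libraries alone (adjusted p = 0.0814). After stimulation WT libraries gave 592, 789 and 730 FPKM and TNFR2-/- libraries 381, 447 and 241 FPKM. Again the genotypes did not overlap, 1.97-fold lower in the mean of TNFR2-/-, with a log2 difference of -1.02 ± 0.29 and an adjusted p of 0.0613. That difference was called when TNFR2-/- NS replicate 4 (adjusted p = 0.0428) or 5 (adjusted p = 0.0403) was left out of the shared fit.

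Within each culture *Pvr* was higher after stimulation, 1.69-, 1.6- and 1.48-fold in WT replicates 2, 3 and 4 and 2.1-, 1.71- and 1.95-fold in TNFR2-/- replicates 2, 4 and 5. The spread between cultures was wide beside these folds. The log2 fold change was 0.67 ± 0.29 in WT (adjusted p = 0.158, not called) and 0.93 ± 0.29 in TNFR2-/- OPCs (adjusted p = 0.0349, called). With each numbered culture of a genotype as a block, both responses were called (adjusted p = 0.00036 in WT and 6.46e-05 in TNFR2-/-). Between genotypes the responses differed by 0.27 (95% CI -0.63 to 1.16, adjusted p = 0.933), so no difference in response between genotypes was detected. The TNFR2-/- response was not called without the filter on low values (adjusted p = 0.0686) or in a fit of the 6 TNFR2-/- libraries (adjusted p = 0.111). Nor was it called when TNFR2-/- NS replicate 2 or 5, TNFR2-/- St replicate 2 or 4 or WT St replicate 4 was left out (adjusted p of 0.0505 to 0.123).

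Levels of markers of other cells are given here beside *Pvr*. All 7 markers of mural cells and fibroblasts were read, with summed levels of 255 to 872 RPM in WT NS, 323 to 791 in WT St, 108 to 542 in TNFR2-/- NS and 75.7 to 468 in TNFR2-/- St. These ranges overlapped between genotypes, and *Acta2* held most of the reads in them (2007 to 25471 a library). None of the 6 markers tested was called between genotypes in either condition. Their median log2 difference of TNFR2-/- from WT was -0.77 when naïve and -1.22 when stimulated, against 0.038 and -0.003 over all genes tested. The TNFR2-/- cultures numbered 5 held the lowest sums (108 and 75.7) and the lowest *Pvr*. The WT cultures numbered 3 held the lowest sums of WT (255 and 323), with *Pvr* at 493 FPKM when naïve and 789 when stimulated. WT NS replicate 4 held the highest sum (872), with *Pvr* at 492 FPKM. The TNFR2-/- cultures numbered 5 also held the highest sums of astrocyte markers (4530 and 4500 RPM, against 2800 to 3000 in the other TNFR2-/- libraries). Their sums of oligodendrocyte markers were the highest too (1300 and 1100 RPM, against 564 to 897). Of the 8 astrocyte markers, 1 was called higher in TNFR2-/- NS than in WT NS, and 2 in TNFR2-/- St than in WT St. Without the TNFR2-/- cultures numbered 5, the naïve log2 difference of *Pvr* was -1.02 (adjusted p = 0.0399). The part of these cells in the level of *Pvr* was not tested. In bulk RNA, fewer cells of a type and less RNA per cell cannot be told apart.

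*Cd200* (ENSMUSG00000022661, chr16:45382135-45409053, minus strand), whose product quiets microglia and macrophages through its receptor, was not called in any comparison. It gave 43.8 to 50.3 FPKM in WT NS, 57.4 to 70.9 in WT St, 37.4 to 46.1 in TNFR2-/- NS and 42.8 to 67.0 in TNFR2-/- St libraries. WT naïve and stimulated libraries did not overlap, with a log2 fold change of 0.43 (95% CI 0.10 to 0.77, adjusted p = 0.0831). TNFR2-/- libraries overlapped, with 0.36 (95% CI 0.02 to 0.69, adjusted p = 0.111). Within each culture *Cd200* was higher after stimulation, 1.5-, 1.26- and 1.31-fold in WT replicates 2, 3 and 4. In TNFR2-/- replicates 2, 4 and 5 it was 1.27-, 1.45- and 1.15-fold higher. Under the alternatives run, adjusted p ranged from 0.00572 to 0.24 in WT and from 0.00887 to 0.347 in TNFR2-/- OPCs. The log2 fold change reached at most 0.505 and 0.532 there, under the fold required.

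**Figure D4:**
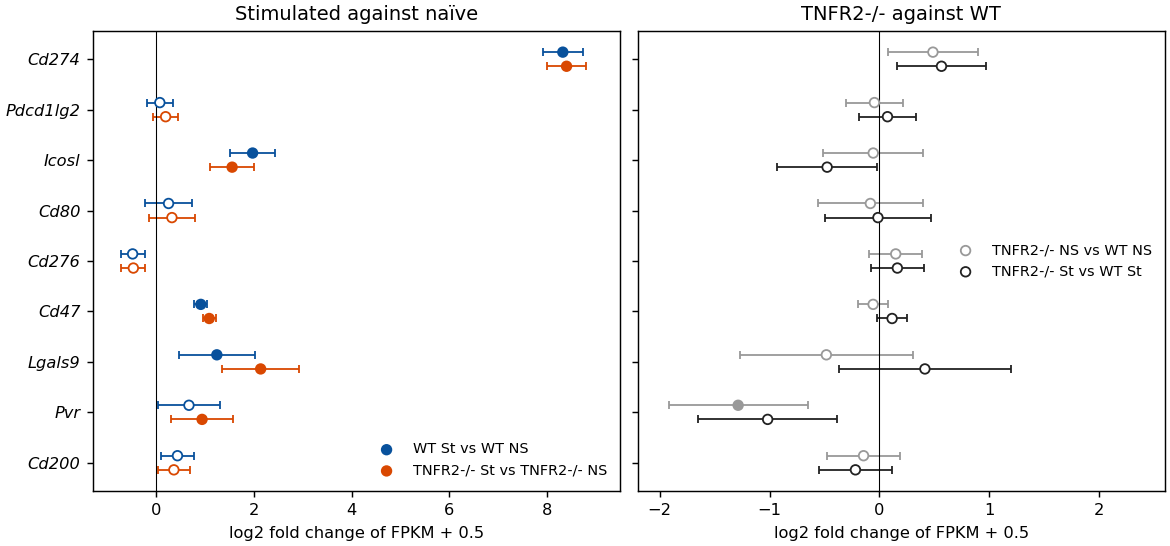
Log2 fold change of FPKM + 0.5 with 95% confidence intervals for 9 ligand genes, stimulated against naïve in each genotype (left) and TNFR2-/- against WT in each condition (right). Filled points passed the call. On the left, *Cd274*, *Icosl*, *Cd47* and *Lgals9* are filled in both genotypes and *Pvr* in TNFR2-/- alone. On the right, *Pvr* in naïve OPCs is filled.

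Over the 10 members, 4 were upregulated by the cytokines in WT OPCs (*Cd274*, *Icosl*, *Cd47* and *Lgals9*) and none was downregulated. Of all 18081 genes tested, 4.58% were called upregulated and 2.95% downregulated in that comparison. In TNFR2-/- OPCs, 5 members were upregulated, the same 4 and *Pvr*, and none was downregulated, against 5.41% and 4.68% of all genes. Between naïve genotypes 1 member was lower in TNFR2-/- and none higher, against 1.28% and 1.62% of all genes. Between stimulated genotypes no member was called by limma, against 1.18% of genes called higher and 0.614% lower. *Cd274*, *Icosl* and *Pvr* had an unadjusted p under 0.05 there, as did 4820 of the 18081 genes tested. For the interaction no member was called (0.00553% of genes were called). No member had an unadjusted p under 0.05 for it, against 1437 of the 18081 genes.

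As RPM per kilobase of annotated exon, the scale on which different genes were compared, *Pvr* (26.1 ± 4.77) and *Cd276* (23.2 ± 1.38) were the highest members in WT NS and overlapped. *Cd200* (9.13 ± 0.627) and *Cd47* (6.36 ± 0.0971) followed, each apart from its neighbor. *Icosl* (0.449 ± 0.0651), *Lgals9* (0.224 ± 0.0587) and *Cd274* (0.104 ± 0.014) were lower in that order without overlap, and *Cd274* overlapped *Cd80*. In WT St, *Cd274* stood first at 74.7 ± 6.87, above *Pvr* at 41.1 ± 5.9 and *Cd276* at 16.5 ± 1.32, with no overlap between these. In TNFR2-/- NS, *Cd276* (25.8 ± 3.47) stood above *Pvr* (11 ± 4.03), which overlapped *Cd200* (8.28 ± 0.916). In TNFR2-/- St, *Cd274* again led at 112 ± 25.9, and *Pvr* (20.8 ± 6.16) overlapped *Cd276* (18.6 ± 2.16). All values are means ± SD of 3 libraries.

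A list of 22 genes upstream of PD-L1 or known to stabilize it was read beside the members. Of these, 17 were upregulated in WT and 18 in TNFR2-/- OPCs, against 4.58% and 5.41% of all genes tested. None was downregulated, against 2.95% and 4.68% of all genes. The median log2 fold change of the list was 1.76 and 1.75, against -0.05 and -0.11 over all genes tested. The largest rise was in *Irf1*, the interferon regulatory factor that drives *Cd274*, at 7.28 ± 0.13 on the log2 scale in WT (adjusted p = 1.25e-10) and 6.69 ± 0.13 in TNFR2-/- (adjusted p = 3.01e-10). *Socs1*, which inhibits JAK kinases, rose by 5.69 ± 0.16 and 6.26 ± 0.16. *Socs3* rose by 4.32 and 4.34, and *Stat2* by 3.63 and 3.51. *Irf9*, which acts with STAT2 in interferon signaling, rose by 2.98 in WT and 2.72 in TNFR2-/- OPCs. *Nfkbia*, the inhibitor of NF-κB, rose by 2.70 in WT and 3.27 in TNFR2-/- OPCs. *Hif1a* was called in TNFR2-/- (0.79, adjusted p = 1.26e-05) but had 0.48 in WT (adjusted p = 0.00063), under the fold required. *Cmtm6*, which protects PD-L1 from degradation, had a log2 fold change of 0.20 (adjusted p = 0.25) and 0.13 (adjusted p = 0.395) in WT and TNFR2-/-, and the receptor gene *Ifngr1* had -0.06 and -0.37 (adjusted p = 0.861 and 0.072). *Irf1* was also called between naïve genotypes, 0.66 ± 0.13 higher in TNFR2-/- (adjusted p = 0.0188), and no gene of the list was called between stimulated genotypes.

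Of 28 other costimulatory, coinhibitory or adhesion ligands, 24 were tested, and 4 were upregulated and 1 downregulated in each genotype. Of all genes tested, 4.58% were called upregulated and 2.95% downregulated in WT, and 5.41% and 4.68% in TNFR2-/- OPCs. The median log2 fold change of these 24 ligands was 0.07 in WT and -0.04 in TNFR2-/- OPCs, against -0.05 and -0.11 over all genes tested. *Icam1*, the adhesion ligand of LFA-1, rose by 7.03 ± 0.44 on the log2 scale in WT (adjusted p = 1.27e-06) and by 5.97 ± 0.44 in TNFR2-/- (adjusted p = 3.87e-06). *Clec2d*, a ligand of the inhibitory receptor NKR-P1, rose by 3.36 ± 0.29 and 3.92 ± 0.29, and *Cd40*, which receives CD40 ligand from T cells, by 3.15 ± 0.24 and 3.42 ± 0.24. *H2-T23*, the gene of Qa-1, rose by 1.36 ± 0.18 and 2.13 ± 0.18 and was 0.96 ± 0.18 higher in TNFR2-/- St than in WT St (adjusted p = 0.0218). *H60b*, a ligand of the activating receptor NKG2D, fell by 1.26 and by 1.51 on the log2 scale (adjusted p = 0.00482 and 0.00119). *H2-T23* and *H60b* belong to families with near-identical copies, so the assignment of their reads is uncertain.

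Of 13 receptors of these ligands, 5 were tested and none was called in any comparison. The largest share of all genes called in 1 direction was 5.41%, upregulated in TNFR2-/- OPCs. *Sirpa*, the receptor of CD47, gave 908 to 1528 reads a library. After stimulation it had a log2 fold change of -0.27 in WT (adjusted p = 0.194). In TNFR2-/- OPCs it had -0.42 (adjusted p = 0.0323), which passed the adjusted threshold but not the fold required. *Cd226*, which encodes DNAM-1, a receptor of CD155, gave 2 to 10 reads in naïve and 20 to 53 in stimulated libraries. Its log2 fold change was 1.21 in WT (adjusted p = 0.00445) and 1.14 in TNFR2-/- (adjusted p = 0.00453), with a mean of 0.681 FPKM that was under the level required. *Pdcd1*, the gene of PD-1, gave 0 to 2 reads a library, *Ctla4* 0 to 1 and *Cd200r1* 0 to 3.

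The pattern of each called member over the 12 libraries was set beside that of 13553 genes averaging 1 FPKM or more, by Pearson's r of log2(FPKM + 0.5) as a description. The points share the stimulation, so any gene with a large response correlates with any other. The closest to *Cd274* were *Irf8* and *Iigp1* (r = 0.999) and *Tap2*, *Gm12185* and *BC023105* (r = 0.998). The closest to *Icosl* were *Lix1l* (0.976), *Haus8* (0.973) and *Tnip2* (0.972), and to *Cd47* they were *Txnrd1* and *Dcp2* (0.998) and *Apol6* (0.996). *Lgals9* had *BC030499* (0.961), *Angptl4* (0.955) and *Gclm* (0.952). *Pvr* had *Dnajb5* (0.986), *Rnf217* and *Sertad1* (both 0.984). By Spearman's rho, which uses ranks alone, *Cd47* and *Lgals9* were each the closest gene to the other (0.993).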

How the data were processed

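The authors aligned reads to GRCm38 (Trim Galore, STAR), and they deposited FPKM. EdgeR served their own calls. The methods name a BGISeq-500 instrument, the labels Illumina protocols. Of 45792 entries a table, 229 shared a symbol and were left out. Whole reads (within 0.003 of a read) were recovered for 26636 of 26636 genes above 0 in at least 2 libraries. A gene above 0 in a single library, such as *Cd86*, *Ctla4* or *Tyrobp*, is returned as 1 read, the least count that fits. The divisors were not exon lengths, so genes were compared by recovered RPM per exon kilobase of GENCODE M21. Limits at 0 reads cover counting error only.

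The deposited FPKM were log2-transformed after 0.5 was added and fitted in limma 3.58.1 (R 4.3.3) as 4 group means with a mean-dependent prior, and p-values were adjusted (Benjamini-Hochberg) over the 18081 genes averaging 0.1 FPKM or more. Python 3.11.15 served the rest. The procedure was tested on simulated data. Members and lists were chosen with earlier results of these data known. Named were all members, up to 6 called genes per list and comparison by fold, 5 neighbors of *Cd274* a side and the 3 genes (5 for *Cd274*) most like each called member. *Cmtm6*, *Ifngr1*, *Sirpa*, *Cd226*, *Pdcd1*, *Ctla4*, *Cd200r1* and *Hif1a* were added after their values were seen. Results for some genes of the lists are not reported here.

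Replicate numbers paired naïve and stimulated libraries within a genotype. With group means removed, the 6 same-numbered pairs correlated at 0.49 to 0.78 and the 12 others at -0.6 to 0.15. Across genotypes, the 4 same-numbered pairs correlated at -0.06 to 0.28 and were not taken as paired. Alternatives were other pseudocounts, filters, scalings, fits, weights, thresholds, voom on recovered reads, replicate blocks and each library left out.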

Additional observations from a re-analysis of the deposited data

How the results depend on the processing

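Across 33 results of the members, 830 of 872 values under an alternative kept their direction and side of the threshold, 23 lost the call, 13 gained it and 6 changed sign. The calls of *Cd274*, *Icosl* and *Cd47* after stimulation held in both genotypes under every alternative run. A replicate block within genotype changed 1 call, that of *Pvr* in WT (adjusted p = 0.00036). With numbers also shared across genotypes, a replicate block called 2 members between naïve genotypes, *Pvr* and *Lgals9* (log2 -0.98, adjusted p = 0.00974), and 1, *Pvr*, between stimulated genotypes (-0.67, adjusted p = 0.00458), and turned the *Lgals9* difference between stimulated genotypes to -0.083. Only the groups compared called 0 members between naïve genotypes, and library weights and voom each called 1, *Pvr*, between stimulated genotypes. With 1 library left out, 0 to 1 members were called between naïve and 0 to 1 between stimulated genotypes. The *Cd274* interaction was -0.20 with a pseudocount of 0.1, -0.24 with voom and -0.023 without the TNFR2-/- cultures numbered 5, and -0.122 to 0.195 with 1 library left out. For *Pvr* in WT, the call was gained with only the groups compared (adjusted p = 0.0382), library weights (0.026) and without the TNFR2-/- cultures numbered 5 (0.0344). The cause was not tested for any of these. Leaving out those cultures and the threshold on RPM were chosen after seeing the data. Genes called ranged from 7 to 1964 between naïve genotypes, 39 to 985 between stimulated genotypes, 1206 to 2903 in the WT and 1582 to 4695 in the TNFR2-/- response, against 524, 325, 1361 and 1824. Between naïve genotypes 49, 54, 229, 952 and 79 were called without WT NS replicate 3 or 4 or TNFR2-/- NS replicate 2, 4 or 5. Between stimulated genotypes 196, 193, 49, 39, 129 and 73 were called without WT NS replicate 4, WT St replicate 2, 3 or 4, or TNFR2-/- St replicate 2 or 5. By Spearman's rho, 2 of 5 genes most like *Cd274*, 1 of 3 for *Cd47* and 0 for *Icosl* and *Lgals9* were shared with the list by Pearson's r. Depth limits *Cd80*, *Cd86*, *Pdcd1lg2* and naïve *Lgals9* and *Cd274*, read at 28 reads or fewer.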
